A study of Homo sapiens with 4 samples.

Results

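The data describe 10 long noncoding RNAs that are familiar from cancer and nuclear biology, MALAT1, NEAT1, GAS5, SNHG1, SNHG12, HOTAIR, PVT1, MIAT, DANCR and TUG1, in renal cancer cells in which PRR11 was silenced. They were taken from the table of read counts by gene name and are 10 of its 36359 rows. All 10 had enough reads to be tested. The cells were ACHN, a long-established line from a human renal cell carcinoma, transfected with Lipofectamine. Of 4 libraries, 2 came from cells given a control siRNA (siNC) and 2 from cells given siRNA against PRR11 (siPRR11), all prepared for RNA-seq with a stranded mRNA kit. The groups otherwise share the same line and culture, so they model 1 cell line, and the siRNA duplex given to each siPRR11 library is not given in the sources used here. Nothing in the labels says that the libraries of a group came from separate cultures, so p-values measure only the spread between these libraries. PRR11 itself, which encodes a proline-rich protein linked to the cell cycle, was lower in both siPRR11 libraries, at 3.82 and 3.49 RPKM against 9.95 and 9.72 in siNC, and 35.9% of it remained.

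Long noncoding RNAs are transcripts that act, as far as is known, without being translated. Some are scaffolds of nuclear bodies: NEAT1 builds the paraspeckle, and MALAT1 gathers in nuclear speckles, which hold splicing factors. Others are mainly known as hosts, whose introns carry small nucleolar RNAs (snoRNAs) that guide chemical modification of ribosomal RNA and whose spliced RNA is often removed by nonsense-mediated decay.

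The libraries held between 59003839 and 92612749 counted reads, and the 10 RNAs together took between 0.0702% and 0.104% of them. Markers of the labelled cell type were present, with PAX8 between 34.6 and 49.8 RPKM and KRT8 between 167.0 and 221.6 RPKM, while PTPRC, CD3E and PECAM1, which mark leukocytes and endothelium, had at most 8 reads in any library. The hepatocyte marker ALB had between 52 and 104 reads.

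On PRR11 silencing, NEAT1 fell and TUG1 rose, and the other 8 did not pass the test. NEAT1 was at 59.1% of its siNC level and TUG1 at 125.0%. The test was the quasi-likelihood test of edgeR, with p-values adjusted by Benjamini-Hochberg over 21630 genes and a threshold of 0.05. These 2 of 10 stand beside a background of 16.7% of all genes tested. The background in each direction was 7.61% for higher and 9.14% for lower, with 1 of the 10 RNAs in each. At an unadjusted p under 0.05 the same count of 2 stood beside 30.3% of all genes. In normalized counts (TMM CPM), the siNC and siPRR11 libraries did not overlap for 6 of the 10 (NEAT1, TUG1, GAS5, HOTAIR, MIAT and DANCR), where 58.4% of all genes showed no overlap. The shares of the 10 are thus close to those of genes in general. Their median log2 fold change was -0.10, against 0.00 over all genes tested, with 4 above 0 and 6 below. In bulk RNA, fewer cells of a type and less RNA per cell cannot be told apart.

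**Figure D1:**
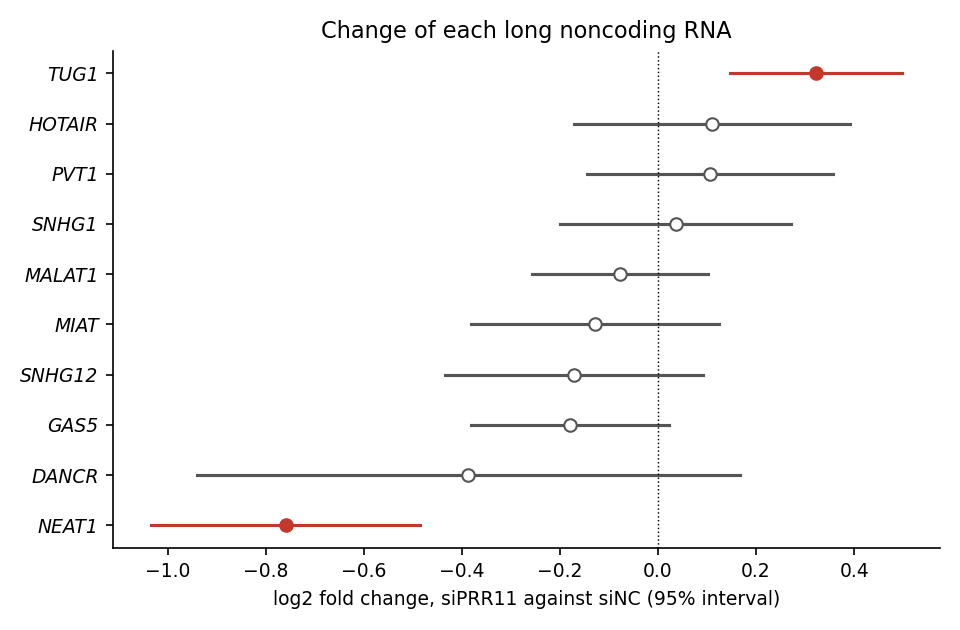
Log2 fold change of each long noncoding RNA in siPRR11 against siNC, with its 95% interval; filled red points passed an adjusted p of 0.05 and open points did not. NEAT1 lies lowest, at -0.76, TUG1 lies highest, at 0.32, and the interval of each of the other 8 includes 0.

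The level of the 10 RNAs per length, as the deposited RPKM (reads scaled by exonic length and by the total of the library), covered a wide range. MALAT1 was the highest, at 38.2 and 36.0 RPKM in siNC and 38.9 and 33.8 RPKM in siPRR11, which placed its mean at rank 1322 of 36359 genes. NEAT1 followed at rank 2628, GAS5 at rank 4164 and TUG1 at rank 6564. SNHG1 and SNHG12 lay together, at ranks 8880 and 9087, and their siNC ranges overlapped. HOTAIR was at rank 10889, PVT1 at rank 11924 and MIAT at rank 15351. DANCR was the lowest, at rank 16071 and between 0.425 and 0.697 RPKM, and its siNC range overlapped that of MIAT. All the other neighbours in this order had separate ranges in both groups. The kit was made for mRNA, and its part in the level of RNAs without a usual poly(A) tail was not tested.

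**Figure D2:**
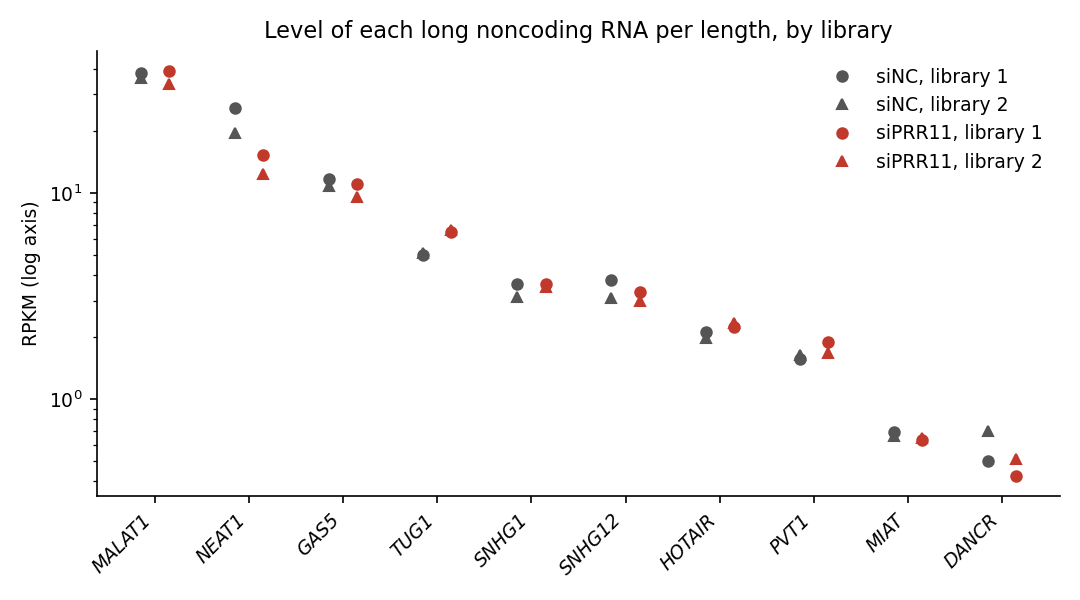
RPKM of each long noncoding RNA in each library on a log axis, in grey for siNC and red for siPRR11, with circles for library 1 and triangles for library 2. The levels run from 38.9 RPKM for MALAT1 to 0.425 RPKM for DANCR. The red points lie below the grey ones for NEAT1 and MIAT and above them for TUG1, HOTAIR and PVT1.

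MALAT1 and NEAT1 are neighbours on chromosome 11, and their long transcripts end in an unusual way. Neither of these ends carries a usual poly(A) tail. Each is cut by RNase P before a tRNA-like structure, and the end is protected by a triple helix in which U-rich stretches pair with an A-rich tract. The sequences below are the 3′ ends as found in GRCh38 (hg38), plus strand, at chr11:65506003-65506116 for MALAT1 and chr11:65445435-65445540 for NEAT1, with the U-rich stretches (T in DNA) and the A-rich tract in capitals. They are shown because the pair shares this architecture, while 1 of the pair passed the test and the other did not. The difference between their changes was not tested.
MALAT1: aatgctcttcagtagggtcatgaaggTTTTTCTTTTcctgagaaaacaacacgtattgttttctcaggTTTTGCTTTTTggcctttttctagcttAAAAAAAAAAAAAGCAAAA
NEAT1: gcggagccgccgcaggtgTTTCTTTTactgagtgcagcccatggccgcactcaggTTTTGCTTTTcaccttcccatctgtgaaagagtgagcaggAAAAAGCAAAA
The NEAT1 tract ends exactly at the last base of the gene as the counts file gives it, and the MALAT1 tract ends 400 bases before the end of its row.

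NEAT1 (GRCh38 chr11:65422774-65445540, plus strand, 1 exon of 22767 bases) is the scaffold of paraspeckles, nuclear bodies that retain certain RNAs and proteins. Its level was 25.7 and 19.4 RPKM in siNC and 15.3 and 12.3 RPKM in siPRR11. The siPRR11 values did not overlap those of siNC, although the siNC libraries also differed from each other, by 0.40 on the log2 scale. NEAT1 fell by 0.76 on the log2 scale (SE 0.126, 95% interval -1.03 to -0.48, adjusted p = 0.00189). Leaving out any 1 library kept the direction, with log2 values between -0.95 and -0.55. Such a fit takes the spread of the lone library from the other group. A call kept in it, here and below, does not measure how stable a result is. In a limma fit of log2(RPKM + pseudocount), the value was -0.67 with a pseudocount of 1 (adjusted p = 0.0645) and -0.70 with 0.1 (adjusted p = 0.0539), which ends the call.

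MALAT1 (chr11:65497762-65506516, plus strand, 1 exon of 8755 bases) did not pass the test. Its log2 fold change was -0.08 (SE 0.0821, 95% interval -0.26 to 0.10, adjusted p = 0.582), and the groups overlapped. Without siPRR11 library 2 the value turned to 0.020. A row on the opposite strand, AP000769.1, overlaps 18.2% of its exon, and since the strand setting of the counting is not given, reads of the 2 strands cannot be told apart there.

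The relation of the pair can also be read within each library, where normalization cancels. The RPKM ratio of NEAT1 to MALAT1 was 0.673 and 0.539 in the siNC libraries, and 0.392 and 0.364 in those of siPRR11. The groups did not overlap, and an exact permutation test of 2 libraries against 2 cannot go below p = 0.333. The ratio of TUG1 to MALAT1 moved the other way, from 0.131 and 0.142 in siNC to 0.166 and 0.195 in siPRR11. Such ratios come from the same libraries as the test and are no independent measurement. Whether the RNAs changed unequally was not tested, and a ratio does not show which of them changed.

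**Figure D3:**
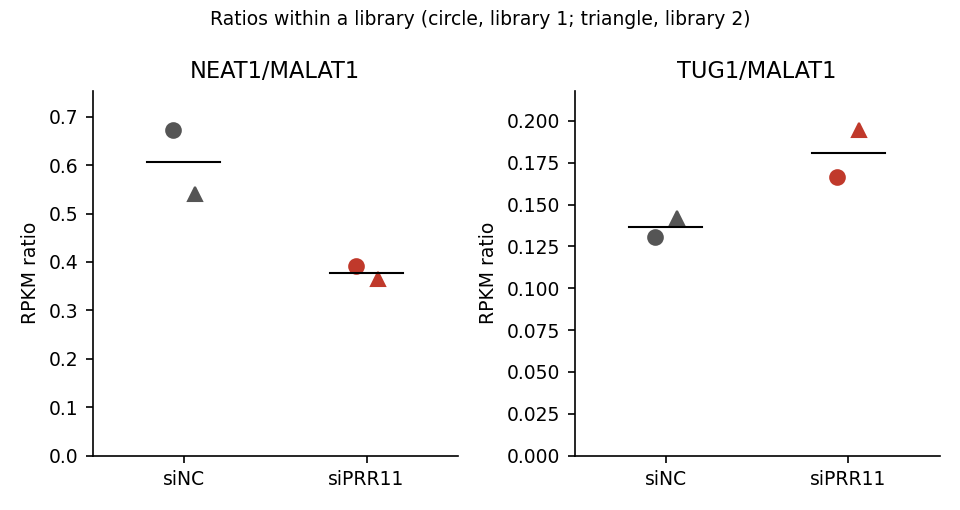
RPKM ratio within each library of NEAT1 to MALAT1 (left) and of TUG1 to MALAT1 (right), with the 2 libraries of a group as points and their mean as a line. The mean NEAT1 ratio was 0.606 in siNC and 0.378 in siPRR11, and the mean TUG1 ratio was 0.136 in siNC and 0.181 in siPRR11.

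NEAT1 makes a short, polyadenylated transcript and a long one from the same start, and the long one is the form that builds paraspeckles. The row counts both. The annotation shows where they part. In GENCODE release 44, only 1 of 9 NEAT1 transcripts (NEAT1-202) runs to the end at base 65445540, and the others end no later than base 65426513. A polyadenylation signal begins at base 65426503, shortly before base 65426513, where 2 of the transcripts end (NEAT1-208 and NEAT1-209). It is shown in capitals within chr11:65426473-65426538 (hg38, plus strand), because the latest ends of the short form lie there. The other 6 short transcripts end before it, and the first part of the gene holds 3 copies of these letters in all.
NEAT1 short form: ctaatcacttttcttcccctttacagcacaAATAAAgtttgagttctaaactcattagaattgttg
The signal begins at base 3730 from the start of the gene, and reads before it may come from either form.

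The counts file also holds rows named NEAT1_1, NEAT1_2 and NEAT1_3, which are short stretches inside NEAT1 and not its isoforms. They cover bases 500 to 619, 865 to 969 and 1187 to 1345 from the gene start, so all 3 lie in the part that the short and the long form share. NEAT1_1 fell by 0.80 on the log2 scale (adjusted p = 0.00838) and NEAT1_3 fell by 0.62 (adjusted p = 0.0163), while NEAT1_2 stood at -0.53 (adjusted p = 0.0548). DESeq2 called neither of the former (adjusted p = 0.0945 and 0.147), and neither did limma. Without siNC library 1 both changes were smaller, at -0.42 for NEAT1_1 and -0.38 for NEAT1_3. These stretches hold 384 bases, or 1.69% of NEAT1, and reads equal to between 13.8% and 15.5% of its count. The density of reads differed between them, at 11.3, 2.5 and 11.4 times that of the whole NEAT1 row in siNC library 1. Density here is the whole count of a row over its length, so reads that only partly overlap a short row may raise it. The same limit holds for the read shares of other short rows below. How the reads spread along the gene and between its forms was not tested. Since the rows lie inside NEAT1, they share its reads and are no independent measurement. A change of the short form alone, of the long form alone or of both cannot be told apart here. No row covers only the part that belongs to the long form.

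TUG1 (chr22:30970677-30979395, plus strand, 4 merged exons of 6793 bases in all) is a widely expressed RNA first described in the retina and known from both the nucleus and the cytoplasm. GENCODE release 44 lists the gene as protein coding. TUG1 was at 4.99 and 5.11 RPKM in siNC and 6.48 and 6.57 RPKM in siPRR11. The libraries of each group lay close together and the groups were far apart relative to that spread. TUG1 rose by 0.32 on the log2 scale (SE 0.0804, 95% interval 0.15 to 0.50, adjusted p = 0.0176). The call was lost when siPRR11 library 1 (log2 value 0.34, adjusted p = 0.106) or siPRR11 library 2 (0.31, adjusted p = 0.149) was left out.

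Stretches inside TUG1 have rows too. All 4 had values above 0, at 0.37, 0.13, 0.30 and 0.78 for TUG1_1 to TUG1_4, but none passed the adjusted threshold, 2 had an unadjusted p under 0.05 and DESeq2 called 0. They hold 9.57% of the bases of TUG1 and reads equal to between 26.1% and 28.5% of its count. On the opposite strand, RP3-430N8.11 overlaps 8.04% of the TUG1 exons and RP3-430N8.10 overlaps 3.89%, with values of 0.13 (adjusted p = 0.712) and 0.30 (adjusted p = 0.165).

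**Figure D4:**
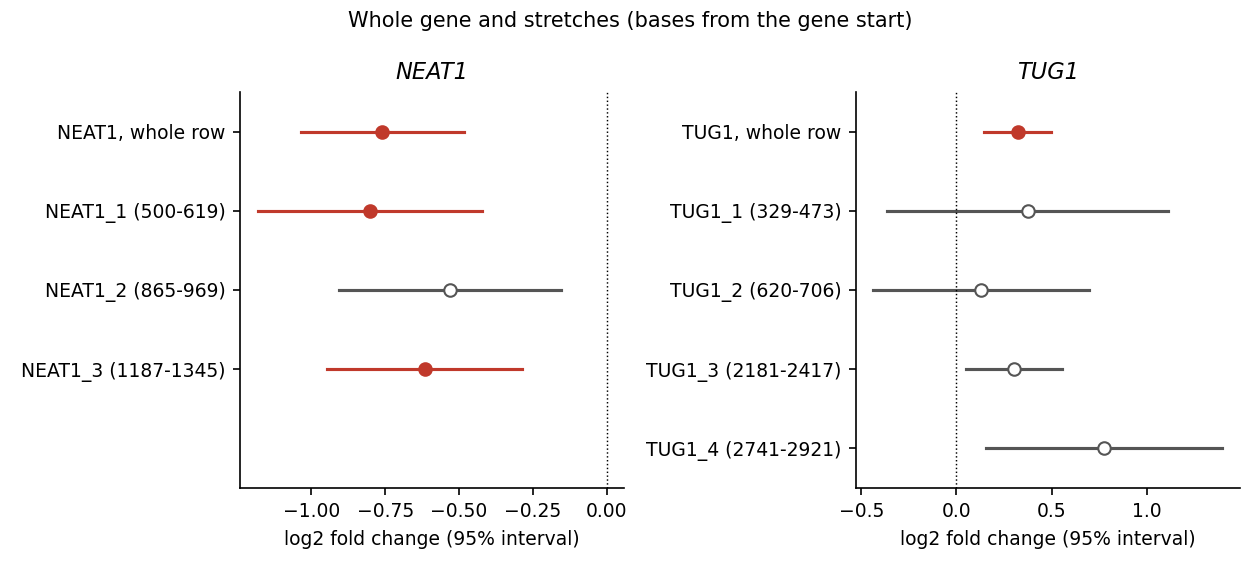
Log2 fold change with its 95% interval of NEAT1 and TUG1 and of the stretches inside them that have rows of their own, ordered by their distance in bases from the gene start. Filled red points passed an adjusted p of 0.05. The NEAT1 stretches lie between -0.80 and -0.53 and those of TUG1 between 0.13 and 0.78.

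MIAT (chr22:26646428-26676475, plus strand), a nuclear RNA that gathers in bodies of its own, was at 0.692 and 0.663 RPKM in siNC and 0.631 and 0.651 RPKM in siPRR11. These groups did not overlap, but the distance between them was small. Its log2 fold change was -0.13 (SE 0.116, 95% interval -0.38 to 0.12, adjusted p = 0.501). The opposite-strand row CTA-373H7.7 overlaps 18.7% of its exons and stood at 0.41 (adjusted p = 0.308).

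HOTAIR (chr12:53962308-53974956, minus strand, 8 merged exons) is transcribed from the HOXC cluster and is known for binding the repressive complex PRC2. It was at 2.12 and 1.97 RPKM in siNC and 2.22 and 2.35 RPKM in siPRR11. Both siPRR11 libraries lay above both siNC libraries, by little, with a log2 fold change of 0.11 (SE 0.129, 95% interval -0.17 to 0.39, adjusted p = 0.615).

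PVT1 spans 306721 bases of chromosome 8 (chr8:127794533-128101253, plus strand) with 21 merged exons and lies beside MYC, the growth-promoting transcription factor. It was at 1.57 and 1.64 RPKM in siNC and 1.89 and 1.67 RPKM in siPRR11. The groups overlapped in normalized counts, though not in RPKM, and the log2 fold change was 0.11 (SE 0.115, 95% interval -0.14 to 0.36, adjusted p = 0.587). MYC, 53098 bases away on the same strand, fell by 0.89 (SE 0.0901, adjusted p = 9.23e-05), from 73.5 and 81.0 CPM in siNC to 39.0 and 44.5 CPM in siPRR11. The difference between these neighbours was not tested.

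The snoRNA hosts form the next group. GAS5 (chr1:173863900-173868882, minus strand), known to accumulate when growth stops, was at 11.6 and 10.8 RPKM in siNC and 10.99 and 9.51 RPKM in siPRR11. Its normalized counts (TMM CPM) did not overlap between the groups, though its RPKM did, and the log2 fold change was -0.18 (SE 0.0925, 95% interval -0.38 to 0.02, adjusted p = 0.219). SNHG1 (chr11:62851988-62855914, minus strand) had a log2 fold change of 0.04 (SE 0.108, 95% interval -0.20 to 0.27, adjusted p = 0.863), from 3.60 and 3.11 RPKM in siNC to 3.63 and 3.49 RPKM in siPRR11. Without siNC library 2 its value turned to -0.065. SNHG12 (chr1:28578538-28582983, minus strand) was at 3.76 and 3.11 RPKM in siNC and 3.32 and 2.997 RPKM in siPRR11, with a log2 fold change of -0.17 (SE 0.121, 95% interval -0.44 to 0.09, adjusted p = 0.377). The groups of SNHG1 and of SNHG12 overlapped.

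DANCR (chr4:52712404-52720351, plus strand), named for its role against differentiation, also lies around a small RNA gene. It had the fewest reads of the 10, with 95 and 94 in the siNC libraries, and 90 and 99 in those of siPRR11. The smallest of these counts has a 95% Poisson interval of 72.4 to 111 reads, which covers counting error only. Its log2 fold change was -0.39 (SE 0.253, 95% interval -0.94 to 0.17, adjusted p = 0.340), so a fall as large as that of NEAT1 was within its interval. Its groups were barely apart in normalized counts, at 1.162 CPM in the lower siNC library and 1.157 CPM in the higher siPRR11 library, and they overlapped in RPKM. Leaving out 1 library gave values from -0.62 (without siNC library 1) to -0.14 (without siNC library 2).

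Many snoRNA host genes and ribosomal protein genes begin transcription with a C followed by a run of pyrimidines, the 5′ terminal oligopyrimidine feature that ties translation to growth signals. The starts of 4 hosts among the 10 and of 3 other hosts are shown because the group is known for this kind of start. The 3 others are the ones that passed the test below, so they do not stand for the other hosts. Each line gives 40 bases from 5 bases before the RefSeq start (GRCh38.p14), with capitals for a C within 5 bases of the start that is followed by at least 4 C or T, read on the gene's strand only. The windows are chr1:173869011-173869050 (GAS5, minus), chr11:62855851-62855890 (SNHG1, minus), chr1:28581839-28581878 (SNHG12, minus), chr4:52712389-52712428 (DANCR, plus), chr1:28505938-28505977 (SNHG3, plus), chr5:139274096-139274135 (SNHG4, plus) and chr6:85678699-85678738 (SNHG5, minus).
GAS5: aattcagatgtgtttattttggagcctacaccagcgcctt
SNHG1: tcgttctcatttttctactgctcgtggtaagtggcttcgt
SNHG12: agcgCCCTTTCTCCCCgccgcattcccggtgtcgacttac
DANCR: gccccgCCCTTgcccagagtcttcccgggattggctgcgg
SNHG3: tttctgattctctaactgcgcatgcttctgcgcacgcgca
SNHG4: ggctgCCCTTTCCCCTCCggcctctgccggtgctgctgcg
SNHG5: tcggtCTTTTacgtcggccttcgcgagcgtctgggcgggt
Of the 10 RNAs, 7 had an entry and 3 of them (MALAT1, SNHG12 and DANCR) held such a start, while NEAT1, HOTAIR and PVT1 had none. It was found in 10 of 18 other snoRNA hosts (55.6%), in 54 of 63 ribosomal protein genes (85.7%) and in 25.2% of all 27305 genes with an entry. The GAS5 entry lies upstream of GAS5 as the counts file and GENCODE 44 give it, so its window is not the start of the counted row. The SNHG12 window lies inside its counted row, which begins at base 28582983 on the minus strand, so it is not that row's start either. The SNHG1 window likewise lies inside its row, which begins at base 62855914. For MALAT1, whose windows are not shown, the match (CCCTCC) begins 5 bases before the start and so lies almost wholly upstream of it. That window begins at base 65497733, before the counted row begins at base 65497762. Another MALAT1 start held no match. A match describes the letters of the window and not the use of the start.

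Of 21 other snoRNA hosts tested, 3 fell and 18 did not pass the test, a share of 14.3% beside the 16.7% of all genes. SNHG5 fell by 0.44 (adjusted p = 0.0152), SNHG3 by 0.40 (adjusted p = 0.0171) and SNHG4 by 0.49 (adjusted p = 0.0249). SNHG10 stood at 0.57 and did not pass (adjusted p = 0.0877). The median log2 fold change of the list was -0.15. The calls were lost without siPRR11 library 1 for SNHG5 (adjusted p = 0.181), without siPRR11 library 2 for SNHG3 (adjusted p = 0.126) and without either for SNHG4 (adjusted p = 0.138 and 0.0972).

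Rows of snoRNAs that lie wholly inside SNHG1 or SNHG12 numbered 9 with enough reads, and edgeR called 0 of them, with 0 at an unadjusted p under 0.05 and 0 by DESeq2, which gave no adjusted p for 5. Their values ran from -0.87 for SNORD30 to 0.19 for SNORD22. SNORA44, whose row joins a place inside SNHG12 to another far away on chromosome 1, stood at -0.62 (adjusted p = 0.281). Rows of microRNAs inside PVT1 and DANCR had at most 10 reads and were not tested. Most of these rows overlap the exons of their host as the file gives them, and there the reads of snoRNA and host cannot be told apart.

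The proteins that work with these RNAs were counted on lists. Of 14 snoRNP proteins, which package snoRNAs, 2 rose and 3 fell (35.7% beside 16.7%), with a median of -0.11. NOLC1, a nucleolar chaperone of snoRNPs, rose by 1.15 (adjusted p = 3.17e-06), from 76.4 and 77.4 RPKM in siNC to 174.9 and 178.1 RPKM in siPRR11, and PIH1D1 rose by 0.31 (adjusted p = 0.0226, and 0.262 without siPRR11 library 2). DKC1, the pseudouridine synthase, fell by 0.49 (adjusted p = 0.00137), RUVBL1 fell by 0.43 (adjusted p = 0.00213) and NOP56 fell by 0.29 (adjusted p = 0.0152). NOP56 lost its call without siPRR11 library 1 (adjusted p = 0.129) or 2 (adjusted p = 0.0992).

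Of 79 cytosolic ribosomal proteins, 7 fell and 72 did not pass the test (8.86%), with a median of -0.03. RPL11 fell by 0.76 (adjusted p = 4.98e-05), RPS26 by 0.53 (adjusted p = 0.000965), RPS15 by 0.35 (adjusted p = 0.00686) and RPL4 by 0.35 (adjusted p = 0.0105). RPL11 and RPS26 kept their calls with any 1 library left out, while RPS15 lost it without siPRR11 library 2 (adjusted p = 0.0703) and RPL4 without siPRR11 library 1 (adjusted p = 0.0915). Ribosomal protein genes have many near-identical processed copies, so their counts are uncertain.

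Of 12 paraspeckle proteins, edgeR called 0, with 5 at an unadjusted p under 0.05, where 30.3% of all genes passed, and DESeq2 called 1. The list's median was -0.09. SFPQ, which binds NEAT1, had the lowest adjusted p, 0.0520, with a value of -0.24. CPSF6 stood at -0.27 (adjusted p = 0.122) and TARDBP at -0.17 (adjusted p = 0.138).

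Of 15 nuclear speckle and SR splicing proteins, 4 fell (26.7%), and the median was -0.14. SRSF4 fell by 0.46 (adjusted p = 0.00220), SRSF6 by 0.33 (adjusted p = 0.0134), SRSF3 by 0.31 (adjusted p = 0.0137) and SRSF1 by 0.30 (adjusted p = 0.0246). SRSF4 kept its call with any 1 library left out. The others lost theirs, SRSF6 without siPRR11 library 2 (adjusted p = 0.152), SRSF3 without siPRR11 library 1 (adjusted p = 0.101) or 2 (adjusted p = 0.0559) and SRSF1 without siPRR11 library 1 (adjusted p = 0.155) or siNC library 2 (adjusted p = 0.0714).

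Of 14 factors of nonsense-mediated decay, 2 fell (14.3%), and the median was -0.01. SMG6, the endonuclease of the pathway, fell by 0.34 (adjusted p = 0.0124), and EIF4A3, the core of the exon junction complex, fell by 0.25 (adjusted p = 0.0364). Both lost the call without siPRR11 library 1 (adjusted p = 0.121 for SMG6 and 0.340 for EIF4A3), and EIF4A3 also without siPRR11 library 2 (adjusted p = 0.138).

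Of 11 subunits of PRC2, which methylates histone H3 and which HOTAIR is known to bind, 2 rose (18.2%), and the median was 0.16. MTF2, an accessory subunit, rose by 0.46 (adjusted p = 0.00223), and EZH2, the catalytic subunit, rose by 0.28 (adjusted p = 0.0201). EZH2 lost its call without siPRR11 library 1 (adjusted p = 0.194) or 2 (adjusted p = 0.0893).

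Other familiar long noncoding RNAs behaved as a mixed group. Of 32 listed, 26 had enough reads, 2 rose and 24 did not pass the test (7.69%), with a median of 0.04. JPX, an RNA of the X inactivation centre, rose by 0.56 (adjusted p = 0.00689), and HCP5, from the major histocompatibility complex, rose by 0.49 (adjusted p = 0.0167). HCP5 lost its call without siPRR11 library 1 (adjusted p = 0.175).

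The genes beside the 10 RNAs were taken by position. Among 20 nearest tested neighbours, 1 rose and 3 fell, beside 7.61% higher and 9.14% lower among all genes, and the median log2 fold change was -0.11. SLC3A2, the heavy chain of amino acid transporters, begins 187 bases from SNHG1 on the opposite strand and fell by 0.55 (SE 0.0906, adjusted p = 0.00185), from 165.1 and 196.8 CPM in siNC to 119.0 and 128.3 CPM in siPRR11, while SNHG1 was at 13.7 and 11.9 CPM and then 13.4 and 12.9 CPM. TAF12, a subunit of general transcription factors beside SNHG12, rose by 0.34 (adjusted p = 0.0310). TPST2, a tyrosine sulfotransferase beside MIAT, fell by 0.50 (adjusted p = 0.0279). The calls of TAF12 were lost without siNC library 2 (adjusted p = 0.116), siPRR11 library 1 (adjusted p = 0.145) or siPRR11 library 2 (adjusted p = 0.0955), and that of TPST2 without siNC library 1 (adjusted p = 0.154) or siPRR11 library 2 (adjusted p = 0.0955). No neighbour of NEAT1 or TUG1 passed the test: FRMD8 beside NEAT1 stood at -0.10 (adjusted p = 0.686) and MORC2 beside TUG1 at 0.03 (adjusted p = 0.864). On their other sides, mascRNA-menRNA stood at -0.38 (adjusted p = 0.626) and RP3-412A9.17, with 2 to 16 reads, at 1.68 (adjusted p = 0.128). The row mascRNA-menRNA begins directly after NEAT1 and shares 57 exonic bases with MALAT1, so it is no separate neighbouring gene. Beyond NEAT1 and its stretches, limma on log2(RPKM + 1) did not call SNHG3, SNHG4, SNHG5, NOP56, RPL4, SRSF1, SRSF3, SRSF6, SMG6, EIF4A3, JPX, HCP5, TAF12 or TPST2, with adjusted p between 0.0523 for NOP56 and 0.198 for TPST2, and of these it called JPX alone with a pseudocount of 0.1. SRSF1 and EIF4A3 also lost their calls with library totals in place of TMM (adjusted p = 0.0501 and 0.0783).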

How the data were processed

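Members and gene lists were chosen with earlier results of these data known. The authors trimmed reads (Trimmomatic 0.36 in the submitters' processing notes), used STAR to align to GRCh38 and counted with featureCounts (Subread 1.5.1), and deposited raw read counts per gene with exons and lengths, not normalized. The deposited RPKM values of the same genes equal count over length and column total to within 3.08e-06% for 15916 genes. Strand use, annotation release and the treatment of reads on overlapping genes are not given in the sources used here. RPKM gave levels, without a test. Counts were tested with edgeR 4.0.16 in R 4.3.3 (TMM, filterByExpr, quasi-likelihood test, condition only, Benjamini-Hochberg over 21630 genes, 0.05), and 14729 genes with too few reads were left out. The standard error is the log2 fold change over the root of F. Totals were between 59003839 and 92612749 reads, and the common biological coefficient of variation was 0.0856. Alternatives were RLE, library totals without TMM, DESeq2 1.42.0, no filter, at least 10 counts in every library, a replicate block, limma 3.58.1 with trend on log2(RPKM + 1) and log2(RPKM + 0.1), and each library left out, where the lone library was taken to vary like the other group. The text names the 10 RNAs, PRR11, markers, rows found by position and, per list, at most the 4 lowest adjusted p. For decay factors, PRC2 and other long noncoding RNAs, only the genes that passed are named. PIH1D1 was added after its value was seen. The result of 1 gene under this rule is not reported here. Of 199 listed symbols 198 matched, 3 by older symbols. Sequences came from RefSeq (GRCh38.p14) and the hg38 reference with GENCODE 44. Intervals are 95%.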

Additional observations from a re-analysis of the deposited data

How the results depend on the processing

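Across 12 alternatives, 113 of 120 values of the 10 RNAs kept their direction and their side of the threshold. With 1 library left out, MALAT1 ranged from -0.18 to 0.0203, the latter without siPRR11 replicate 2, and SNHG1 from -0.0651, without siNC replicate 2, to 0.1427. GAS5 ranged from -0.28 to -0.08, SNHG12 from -0.30 to -0.03, DANCR from -0.62 to -0.14, HOTAIR from 0.06 to 0.17, PVT1 from 0.02 to 0.19 and MIAT from -0.16 to -0.10, and none of these passed. Under limma on log2(RPKM + 1) and log2(RPKM + 0.1), 1775 and 1878 genes and 1 of the 10 RNAs passed, against 3622 and 2 in edgeR. With the replicate number as a block, 6988 genes passed, and 3 of the 10, as GAS5 joined (-0.18, adjusted p = 0.0383). The labels give no batch or day behind these numbers. With a block, 4 libraries leave little from which to estimate the spread, so the added calls, GAS5 among them, are uncertain. Over the genes tested, the difference between siNC libraries 1 and 2 and that between siPRR11 libraries 1 and 2 had a correlation of 0.165. The design does not say whether the libraries are paired. Leaving out 1 library gave between 2172 and 4590 genes, between 1 and 2 of the 10, and between 2 and 4 at an unadjusted p. The lists' counts ranged from 0 to 7 for snoRNA hosts, 0 to 11 for other long noncoding RNAs, 0 to 5 for paraspeckle, 1 to 6 for speckle, 0 to 3 for decay, 4 to 9 for snoRNP, 3 to 14 for ribosomal and 1 to 7 for PRC2 proteins. Library totals without TMM moved the median of all genes by 0.05. The causes were not tested. DANCR had the fewest reads, 90 to 99, and each group has 2 libraries.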

Other observations

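Rows that overlap the 10 RNAs on the opposite strand gave values of their own. HOTAIR_3, a row of 97 bases opposite HOTAIR, had 151 and 104 reads in siNC and 194 and 194 in siPRR11. These equal between 32.9% and 37.7% of the HOTAIR count on 3.73% of its bases, a share that partly overlapping reads may raise. Its log2 fold change was 0.25 (edgeR, adjusted p = 0.416). Opposite PVT1, RP11-55J15.2 (0.81, adjusted p = 0.0751) and RNU4-25P (0.79, adjusted p = 0.0928) each had a higher CPM in both siPRR11 libraries than in either siNC library. These 2 rows take in nearly the same reads.

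PVT1_1, a stretch of 194 bases at the start of PVT1, held reads equal to between 24.5% and 33.1% of its count and stood at -0.11 (adjusted p = 0.738). PVT1_3, about 96 kilobases further on, stood at 0.26 (adjusted p = 0.561). MIATNB, which shares 221 exonic bases with MIAT, stood at -0.25 (adjusted p = 0.417).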
